A study of Mus musculus with 10 samples.

Results

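The MHC class II genes described here are 9 mouse genes chosen by name: H2-Aa, H2-Ab1, H2-Eb1, H2-DMa, H2-DMb1, H2-DMb2, H2-Oa, Cd74 and Ciita. They are 9 of the 52287 named genes of the nuclear chromosomes in the deposited table, and all 9 passed the filter on low values that left 15440 genes for testing. The study sequenced RNA of subcutaneous tumours grown in mice from 4T1, a mouse mammary carcinoma line, on day 14. Its 10 libraries form 5 groups of 2. The treated groups are MK1775 in a form called Free, without (Free-MK1775) or with NLG919 (Free-MK1775+NLG919), and in a form called Lipo, without (Lipo-MK1775) or with NLG (Lipo-MK1775+NLG); the negative control is named as PBS in the design text. MK1775 inhibits the cell cycle kinase WEE1, and NLG919 acts on the IDO1 pathway of tryptophan breakdown. The design text gives the fourth group as Lipo-MK1775+NLG919, and NLG was read as NLG919 on that basis. All groups share the line, the site and the day. The sources used here do not state what the 2 forms consist of, the doses, or the strain and age of the mice. Nor do they say whether each library of a group is another animal, and p-values therefore measure only the spread between these libraries, which may be technical.

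MHC class II molecules show peptides from the endosomal pathway to CD4 T cells. Their alpha and beta chains pair in the endoplasmic reticulum around the invariant chain CD74, which is then cut away until a fragment remains in the peptide groove; H2-DM removes that fragment and edits the peptides, and H2-O restrains H2-DM. Macrophages, dendritic cells and B cells carry these genes, and CIITA, which joins the factors on the X and Y boxes of class II promoters, is the main switch of their transcription and is itself induced by interferon gamma. CD74 is also a receptor for the cytokine MIF.

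Levels are given on 1 scale throughout: the FPKM of a gene's named transcripts, summed and divided by the library's summed FPKM outside the mitochondrial genome, times 1000000. FPKM are already divided by transcript length, so levels of different genes can be set side by side. Mitochondrial genes made up 47.3% to 64.1% of summed FPKM in 3 libraries, Free-MK1775+NLG919 replicate 2 and both Lipo-MK1775 libraries, and 2.88% to 4.82% in the other 7. Relative depth ran between 1.00 and 1.95. The labels call the material cancer cells, but markers of several cell types were present. Krt8, an epithelial keratin, stood at 292 to 759, C1qa, a complement gene of macrophages, at 605 to 1694, and Epcam, an epithelial adhesion gene, at 0 to 12.2. In such bulk tissue, fewer cells of a type and less RNA per cell cannot be told apart.

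The promoters are shown first because the X and Y boxes are what the class II genes share in regulation. RefSeq windows on build GRCm38.p6 are reported for 6 of the 9 genes. Cd74 was left out of that count, and no match to the patterns below was recorded for it. H2-Ab1 and Ciita were not matched to a window. In each 150-base window upstream of the RefSeq start, the Y box was searched on both strands as TGATTGG, and the X box by the longer run in capitals below with any base allowed after its opening AAC; the matches of the 2 patterns do not overlap. Capitals mark the matches, and each line runs 5′ to 3′ towards the start site. The windows are H2-Eb1 at chr17:34305717-34305866 (plus strand), H2-DMb1 at chr17:34153041-34153190 (plus), H2-DMb2 at chr17:34145099-34145248 (plus), H2-Aa at chr17:34287824-34287973 (minus) and H2-Oa at chr17:34092229-34092378 (plus).
H2-Eb1: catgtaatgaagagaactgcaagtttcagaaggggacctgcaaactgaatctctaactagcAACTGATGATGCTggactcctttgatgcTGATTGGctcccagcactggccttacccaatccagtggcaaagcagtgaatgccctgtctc
H2-DMb1: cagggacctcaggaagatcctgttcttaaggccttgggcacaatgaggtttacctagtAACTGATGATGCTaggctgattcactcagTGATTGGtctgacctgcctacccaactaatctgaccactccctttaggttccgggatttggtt
H2-DMb2: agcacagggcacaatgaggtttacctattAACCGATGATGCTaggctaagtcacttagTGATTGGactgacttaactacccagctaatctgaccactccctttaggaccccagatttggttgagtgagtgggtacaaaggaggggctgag
H2-Aa: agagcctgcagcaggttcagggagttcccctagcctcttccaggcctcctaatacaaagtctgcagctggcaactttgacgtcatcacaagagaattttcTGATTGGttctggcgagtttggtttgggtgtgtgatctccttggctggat
H2-Oa: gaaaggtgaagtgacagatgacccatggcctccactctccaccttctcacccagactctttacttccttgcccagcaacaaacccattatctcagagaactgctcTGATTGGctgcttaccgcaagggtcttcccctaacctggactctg

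The Y box letters stood in these 5 windows and in 5.71% of all 32851 promoter windows of that length. The X box letters stood in H2-Eb1, H2-DMb1 and H2-DMb2 and in 4 windows of all, or 0.0122%. The fourth belongs to a predicted gene. That share holds for this spelling alone, and X boxes spelled otherwise were not searched. The base left free is the one at which the matched members differ, so the low share is no test of the box. The windows of H2-DMb1 and H2-DMb2 are also alike in sequence, so their matches are not independent. The H2-Aa and H2-Oa windows did not match it, which does not mean that they lack an X box. In H2-Eb1 the X box ended 77 bases and the Y box began 61 bases upstream of the start, and in H2-DMb1 these distances were 80 and 63. In H2-DMb2 they were 109 and 92. H2-DMa has 2 RefSeq starts, and neither window held these letters, which says nothing about the factors that bind there.

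The genes of the cell-surface molecules are H2-Aa and H2-Ab1, which encode the alpha and beta chains of I-A, and H2-Eb1, the beta chain of I-E. On build GRCm39 all lie on chromosome 17, H2-Ab1 at 34476663 to 34488393 on the plus strand, H2-Aa at 34501718 to 34506818 on the minus strand and H2-Eb1 at 34524841 to 34535648 on the plus strand. H2-Aa stood at 782 and 461 in Free-MK1775 tumours, 1225 and 79.9 in Free-MK1775+NLG919, 761 and 631 in Lipo-MK1775, 468 and 372 in Lipo-MK1775+NLG and 447 and 394 in the negative control. The highest and the lowest of the 10 values were the pair of Free-MK1775+NLG919 libraries. Both Lipo-MK1775 values lay above both control values, as did both Free-MK1775 values.

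H2-Ab1 stood at 366 and 207 in Free-MK1775, 529.5 and 51.2 in Free-MK1775+NLG919, 425 and 454 in Lipo-MK1775, 225 and 372 in Lipo-MK1775+NLG and 214 and 218 in the control. H2-Eb1 stood at 439.9 and 228 in Free-MK1775, 757 and 24.4 in Free-MK1775+NLG919, 329 and 353 in Lipo-MK1775, 252 and 309 in Lipo-MK1775+NLG and 181 and 189.6 in the control. Again both extremes fell in Free-MK1775+NLG919. The Lipo-MK1775 and Lipo-MK1775+NLG libraries lay above both controls for either gene. With unnamed transcripts added, H2-Ab1 stood at 331 and 429 in Lipo-MK1775+NLG and overlapped the control, at 342 and 266. H2-Ea, the alpha partner of H2-Eb1 and not among the 9, ran alongside at 785 and 379 in Free-MK1775, 1019.6 and 47.1 in Free-MK1775+NLG919, 535 and 555 in Lipo-MK1775, 391 and 478 in Lipo-MK1775+NLG and 379 and 289 in the control.

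Group means (± SD, n = 2) of H2-Ab1 were 439 ± 20.5 in Lipo-MK1775, 298 ± 103 in Lipo-MK1775+NLG, 290.3 ± 338 in Free-MK1775+NLG919, 286 ± 113 in Free-MK1775 and 216 ± 3.02 in the control. Only the step between Lipo-MK1775 and Lipo-MK1775+NLG was larger than the SD of both neighbours. With unnamed transcripts added, H2-Ab1 stood at 466 and 507 in Lipo-MK1775, 727 and 331 in Free-MK1775 and 928 and 72.5 in Free-MK1775+NLG919. For H2-Eb1 the order was 391 ± 518 in Free-MK1775+NLG919, 341 ± 16.6 in Lipo-MK1775, 334 ± 149.9 in Free-MK1775, 281 ± 40.0 in Lipo-MK1775+NLG and 185 ± 6.04 in the control, and only the last step exceeded both SDs. H2-Aa averaged 696 ± 92.3 in Lipo-MK1775, 652 ± 809 in Free-MK1775+NLG919, 621 ± 227 in Free-MK1775, 420.1 ± 68.4 in Lipo-MK1775+NLG and 421 ± 37.6 in the control, with no neighbours apart beyond both SDs.

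**Figure D1:**
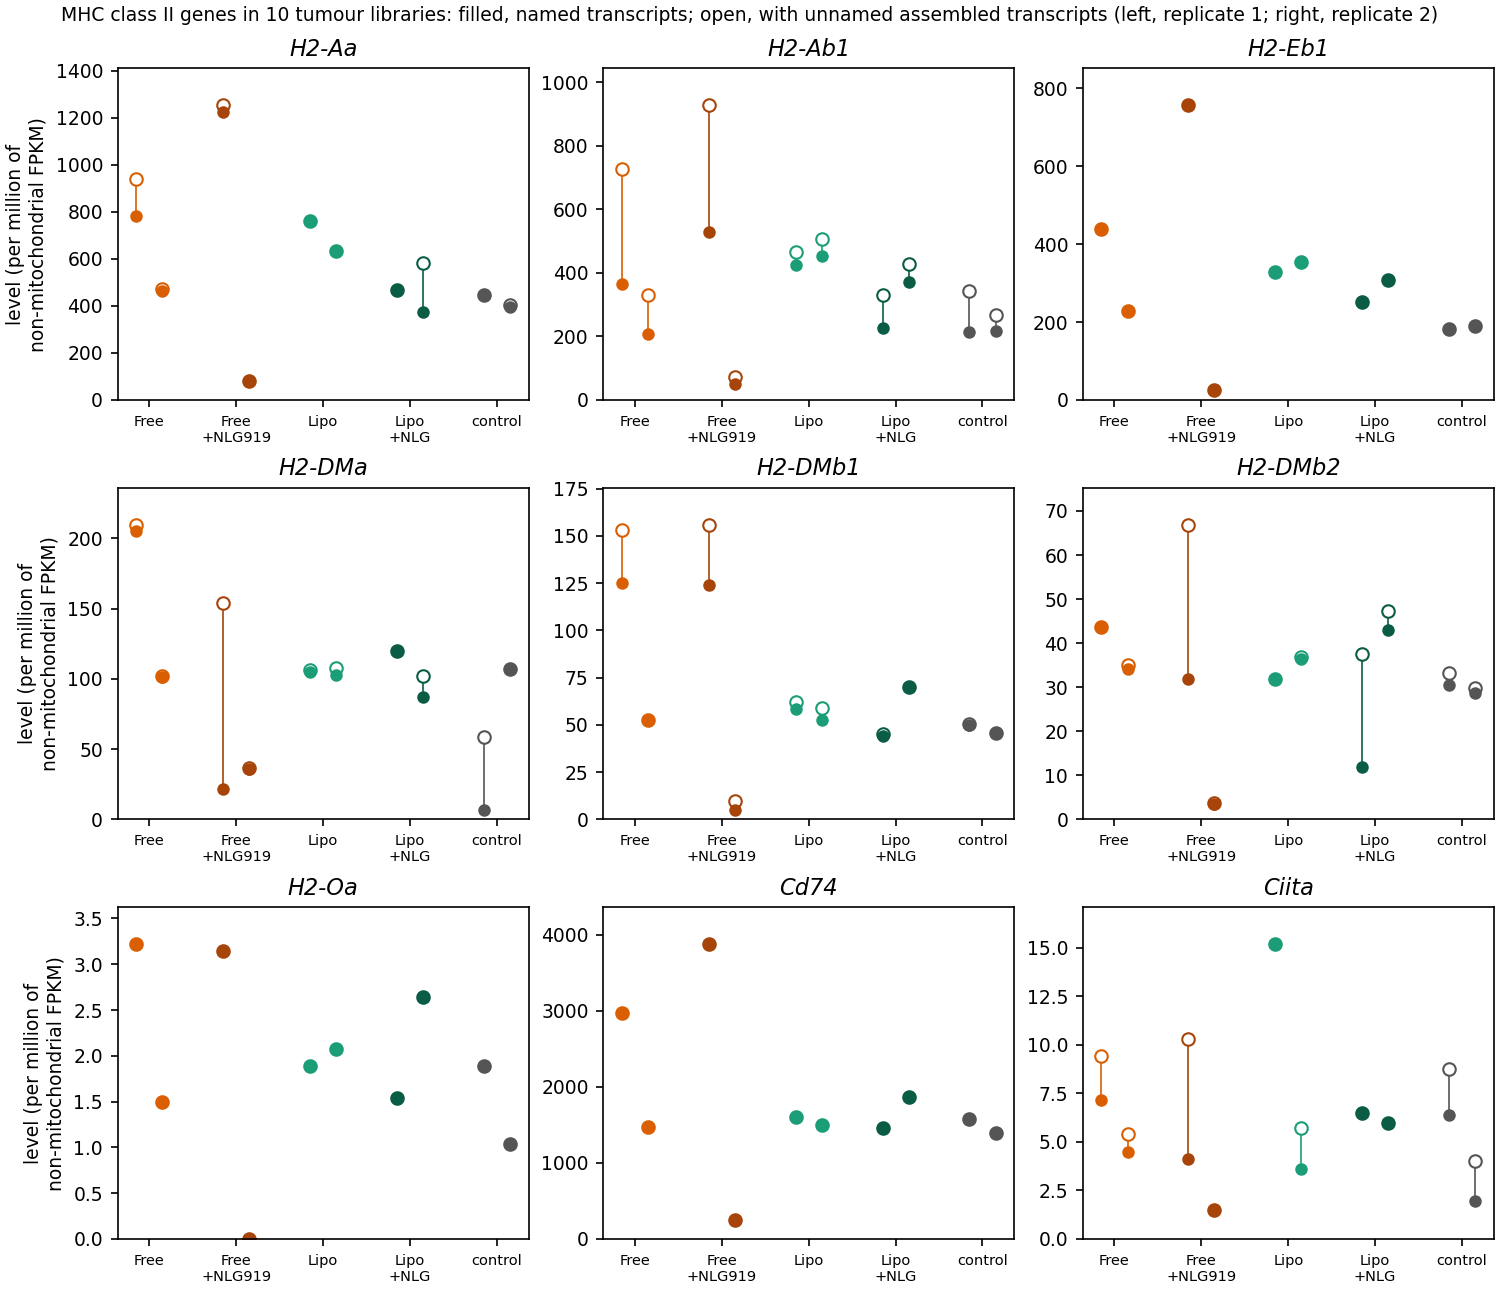
Level of each of the 9 genes (share of non-mitochondrial FPKM times 1000000, linear axes starting at 0) in every library, by group, with replicate 1 on the left and replicate 2 on the right of each pair. Filled points sum the named transcripts and open points add unnamed assembled transcripts of the same locus; Free-MK1775+NLG919 holds a high and a low library for most genes, and H2-DMa differs most between the filled and open points.

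Cd74, on chromosome 18 at 60936920 to 60945724 (plus strand, GRCm39), was the most abundant of the 9. It stood at 2970.3 and 1474 in Free-MK1775, 3879 and 249.8 in Free-MK1775+NLG919, 1609 and 1504 in Lipo-MK1775, 1459.9 and 1863 in Lipo-MK1775+NLG and 1573 and 1393 in the control. Among the 15440 genes tested it ranked 12th in Free-MK1775+NLG919 replicate 1 and 406th in replicate 2. Its group means were 2222 ± 1058 in Free-MK1775, 2064 ± 2566 in Free-MK1775+NLG919, 1662 ± 285 in Lipo-MK1775+NLG, 1556 ± 74.3 in Lipo-MK1775 and 1483 ± 127 in the control (SD, n = 2), and no neighbours in that order differed by more than both SDs.

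The H2-DM genes encode the peptide editor, H2-DMa its alpha chain and H2-DMb1 and H2-DMb2 alternative beta chains. They lie on chromosome 17, plus strand, H2-DMa at 34338515 to 34358075, H2-DMb2 at 34362281 to 34370638 and H2-DMb1 at 34372046 to 34379209. H2-DMb1 stood at 125 and 52.5 in Free-MK1775, 124 and 5.21 in Free-MK1775+NLG919, 58.2 and 52.7 in Lipo-MK1775, 44.2 and 70.2 in Lipo-MK1775+NLG and 50.2 and 45.5 in the control. H2-DMb2 stood at 43.6 and 34.2 in Free-MK1775, 31.9 and 3.56 in Free-MK1775+NLG919, 31.9 and 36.4 in Lipo-MK1775, 11.9 and 43.0 in Lipo-MK1775+NLG and 30.4 and 28.7 in the control. Free-MK1775+NLG919 replicate 2 was the lowest library for either gene. Their reference transcripts in GENCODE M21 matched at 75.3% of aligned positions, with an identical run of 221 bases, and some unnamed assembled transcripts spanned both loci, so how reads were split between the 2 genes is uncertain. H2-DMb1 averaged 88.6 ± 51.1 in Free-MK1775, 64.7 ± 84.2 in Free-MK1775+NLG919, 57.2 ± 18.4 in Lipo-MK1775+NLG, 55.4 ± 3.90 in Lipo-MK1775 and 47.8 ± 3.30 in the control (SD, n = 2), and only the last step exceeded both SDs. H2-DMb2 averaged 38.9 ± 6.67 in Free-MK1775, 34.2 ± 3.21 in Lipo-MK1775, 29.5 ± 1.21 in the control, 27.5 ± 22.0 in Lipo-MK1775+NLG and 17.7 ± 20.0 in Free-MK1775+NLG919, and only Lipo-MK1775 and the control, as neighbours, differed by more than both SDs.

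H2-DMa showed another pattern, which came largely from the way its transcripts were named. It stood at 205 and 101 in Free-MK1775, 21.6 and 35.6 in Free-MK1775+NLG919, 105 and 103 in Lipo-MK1775, 120.0 and 86.8 in Lipo-MK1775+NLG and 6.60 and 107 in the control. An unnamed 7-exon transcript at the same locus held 132 in Free-MK1775+NLG919 replicate 1 and 51.9 in negative control replicate 1, against 0 to 15.5 in the other libraries. With the unnamed transcripts added, H2-DMa stood at 209.7 and 102 in Free-MK1775, 154 and 36.4 in Free-MK1775+NLG919, 106 and 108 in Lipo-MK1775, 120.0 and 102 in Lipo-MK1775+NLG and 58.5 and 107 in the control. Free-MK1775+NLG919 replicate 2 was then its lowest library too. H2-DMb2 in Lipo-MK1775+NLG replicate 1 likewise stood at 37.5 with the unnamed transcripts added, against 11.9 without them. With them, H2-DMa averaged 156 ± 76.1 in Free-MK1775, 111 ± 12.5 in Lipo-MK1775+NLG, 107 ± 1.39 in Lipo-MK1775, 95.1 ± 83.0 in Free-MK1775+NLG919 and 82.9 ± 34.5 in the control (SD, n = 2), and no neighbours in that order differed by more than both SDs.

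H2-Oa, the alpha chain of the H2-DM inhibitor H2-O, was scarce. Its locus is on chromosome 17 at 34311314 to 34314208, plus strand. It stood at 3.22 and 1.50 in Free-MK1775, 3.14 and 0 in Free-MK1775+NLG919, 1.89 and 2.07 in Lipo-MK1775, 1.54 and 2.64 in Lipo-MK1775+NLG and 1.89 and 1.04 in the control. H2-Ob, its beta partner, was listed at no more than 1.29 in any library and at 0 in the 3 libraries of high mitochondrial share. With unnamed transcripts added to both genes, the level of H2-Oa was 0.968% to 3.23% of that of H2-DMa in the 9 libraries where H2-Oa was listed above 0.

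Ciita, the transactivator, lies on chromosome 16 at 10297923 to 10347113, plus strand. It stood at 7.18 and 4.48 in Free-MK1775, 4.10 and 1.50 in Free-MK1775+NLG919, 15.2 and 3.62 in Lipo-MK1775, 6.48 and 5.96 in Lipo-MK1775+NLG and 6.38 and 1.96 in the control. Most of the highest value, 11.0 of the 15.2 in Lipo-MK1775 replicate 1, was a 2-exon transcript of 1984 bases. That transcript stood at 3.06 in Lipo-MK1775 replicate 2, 1.01 in Free-MK1775+NLG919 replicate 2 and at most 0.243 in the other 7 libraries, so its 3 highest levels were in the libraries of high mitochondrial share. Transcripts that begin at the most upstream starts, the unnamed one included, stood at 5.55 and 4.27 in Free-MK1775, 10.0 and 0.497 in Free-MK1775+NLG919, 2.47 and 2.67 in Lipo-MK1775, 6.02 and 5.83 in Lipo-MK1775+NLG and 5.41 and 3.77 in the control. On these starts the Lipo-MK1775 libraries lay below both controls, whereas summed over the named transcripts the groups overlapped. On the same scale 67.4% of all genes were lower in Lipo-MK1775 than in the control without overlap. Group means of Ciita (named transcripts) were 9.43 ± 8.21 in Lipo-MK1775, 6.22 ± 0.365 in Lipo-MK1775+NLG, 5.83 ± 1.91 in Free-MK1775, 2.80 ± 1.84 in Free-MK1775+NLG919 and 4.17 ± 3.13 in the control (SD, n = 2), and neither these nor those of H2-Oa, between 1.47 and 2.36, differed between neighbours in order by more than both SDs.

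Against the negative control, limma called none of the 9 genes for any treatment at a Benjamini-Hochberg adjusted p under 0.05. Across all genes tested, 0.0130% were called for Free-MK1775, 0.0194% for Free-MK1775+NLG919, 21.1% for Lipo-MK1775 and 0.00648% for Lipo-MK1775+NLG. The unadjusted p was under 0.05 for 1 of the 9 genes with Free-MK1775 and for 0 with each of the other treatments, and for 304, 3365, 6707 and 391 of all genes in the same order. These 4 comparisons share the 2 control libraries.

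In Free-MK1775 tumours all 9 genes were higher than in the control, by a median of 0.52 on the log2 scale, where the median of all genes was -0.06 and 41.8% of all genes were higher. They were also all higher on the FPKM as deposited and under median-of-ratios and quantile scaling. Without Free-MK1775 replicate 1 the median was 0.14 and 7 were higher, with Cd74 at -0.01 and H2-Ab1 at -0.06, and without replicate 2 the median was 0.90. Libraries of the groups did not overlap for H2-Aa, H2-Eb1, H2-DMb1 and H2-DMb2, 4 of 9 higher and 0 lower, against 13.1% and 20.2% of all genes. H2-Eb1 differed by 0.77 ± 1.20 (SE, adjusted p = 1.00) and Cd74 by 0.50 ± 0.99 (adjusted p = 1.00). H2-DMa differed by 2.34 ± 0.98 (unadjusted p = 0.0408, adjusted p = 1.00), but by 0.88 ± 0.58 with its unnamed transcripts added and by 0.43 without negative control replicate 1.

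In Free-MK1775+NLG919 tumours 8 of the 9 genes were lower than in the control, with a median of -0.42 beside a median of -0.44 for all genes; 5 were lower under median-of-ratios scaling and 6 under quantile scaling. The groups overlapped for each of the 9 genes, whereas 40.8% of all genes were lower and 9.87% higher without overlap. H2-DMb2 differed by -1.32 ± 0.84 (adjusted p = 0.350), Cd74 by -0.59 ± 0.99 (adjusted p = 0.726) and H2-Eb1 by -0.43 ± 1.20 (adjusted p = 0.842). The values depended on which of the 2 libraries stood for the group. Without replicate 1, H2-Aa differed by -2.38, H2-Ab1 by -2.06, H2-Eb1 by -2.88, H2-DMb1 by -2.97, H2-DMb2 by -2.74 and Cd74 by -2.56. Without replicate 2, H2-Aa differed by 1.54, H2-Ab1 by 1.29, H2-Eb1 by 2.03, H2-DMb1 by 1.36 and Cd74 by 1.39, none of them called. In each of these fits the lone library is assumed to vary like the other groups.

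In Lipo-MK1775 tumours all 9 genes were higher than in the control, with a median of 0.72, while the median of all genes was -0.78 and 17.0% of all genes were higher; on the FPKM as deposited H2-DMb1, H2-DMb2 and Cd74 were lower and 6 were higher, and under quantile scaling 8 were higher. The median was 0.23 without negative control replicate 2 and 0.34 without Lipo-MK1775 replicate 1, with 8 higher in each. The libraries did not overlap for 6 of the 9 genes, H2-Aa, H2-Ab1, H2-Eb1, H2-DMb1, H2-DMb2 and H2-Oa, against 8.24% of all genes in that direction and 67.4% lower. For H2-Oa the nearest Lipo-MK1775 and control values were both 1.89 as rounded. With unnamed transcripts added, H2-DMb2 overlapped. On the FPKM as deposited, H2-Aa, H2-Ab1 and H2-Eb1 were higher without overlap. There H2-DMb1 and Cd74 were lower without overlap, and H2-DMb2 and H2-Oa overlapped. H2-Ab1 differed by 1.02 ± 0.85 (adjusted p = 0.365), H2-Eb1 by 0.88 ± 1.20 (adjusted p = 0.582), H2-Aa by 0.72 ± 0.97 (adjusted p = 0.574) and Cd74 by 0.07 ± 0.99 (adjusted p = 0.962). The SE comes from the spread over all 5 groups, to which the Free-MK1775+NLG919 pair contributes. In a limma fit of the 4 Lipo-MK1775 and control libraries alone, 3 genes were called: H2-Aa at 0.72 ± 0.15 (adjusted p = 0.0272), H2-Ab1 at 1.02 ± 0.10 (adjusted p = 0.0139) and H2-Eb1 at 0.88 ± 0.10 (adjusted p = 0.0140). That fit called 6356 of all genes, 426 higher and 5930 lower. Leaving out either library of Free-MK1775+NLG919 left the H2-Ab1 and H2-Eb1 differences at 1.02 and 0.88. With unnamed transcripts added, the H2-Ab1 difference was 0.69 ± 0.88. Both Lipo-MK1775 libraries have a high mitochondrial share and no other Lipo-MK1775 library exists, so the treatment and that share cannot be told apart.

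In Lipo-MK1775+NLG tumours 7 of the 9 genes were higher than in the control and the median was 0.32, beside -0.02 for all genes; 8 were higher on the FPKM as deposited and under median-of-ratios scaling. The median was 0.07 without negative control replicate 2 and 0.06 without Lipo-MK1775+NLG replicate 2. H2-Ab1 and H2-Eb1, 2 of the 9, were higher without overlap and 0 were lower, against 20.7% and 23.4% of all genes. With unnamed transcripts added, H2-Ab1 overlapped the control. H2-Eb1 differed by 0.59 ± 1.20, H2-Ab1 by 0.42 ± 0.85, Cd74 by 0.16 ± 0.99 and H2-Aa by -0.01 ± 0.97, each at adjusted p = 1.00 by limma.

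**Figure D2:**
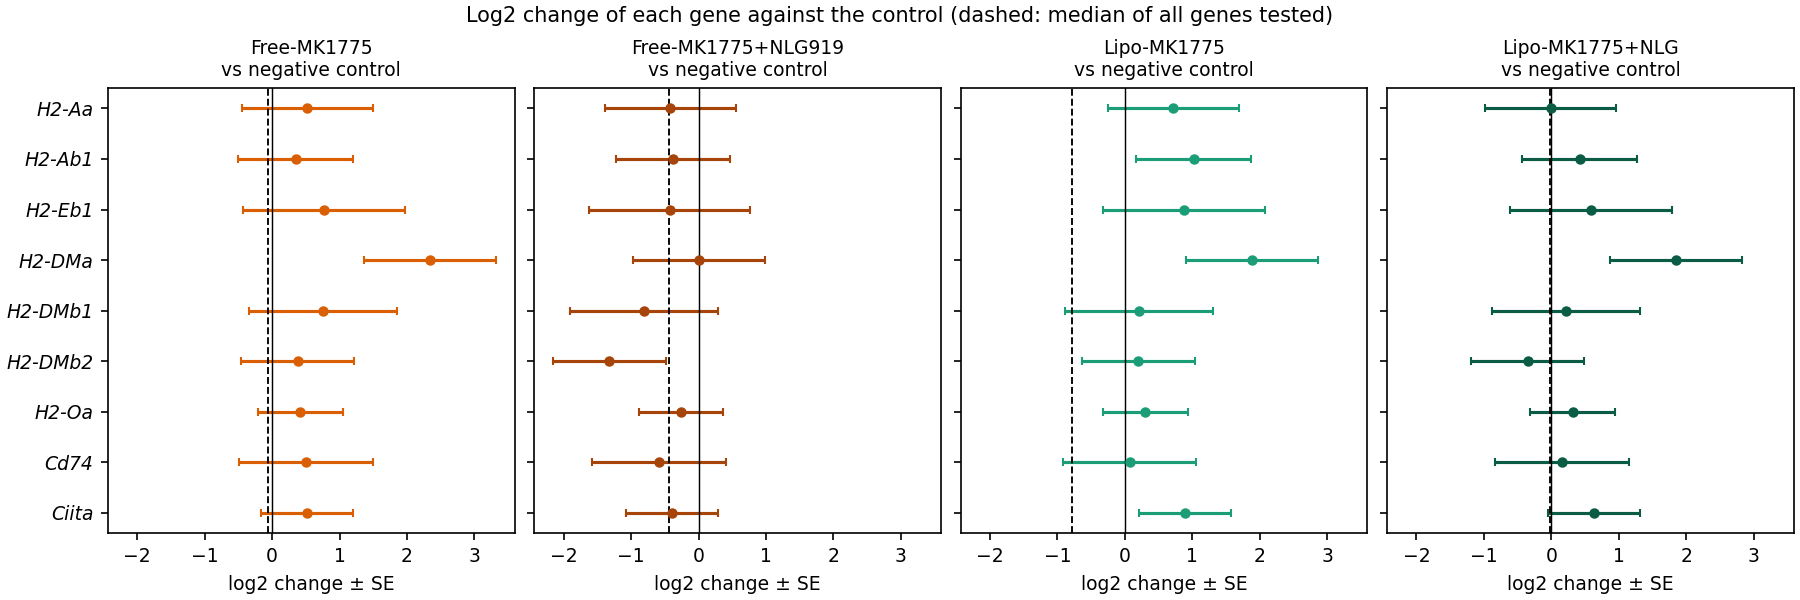
Log2 change of each of the 9 genes against the negative control (points, with SE from the limma fit of 10 libraries) for each treated group. The solid line marks no change and the dashed line the median of all genes tested, which was -0.78 for Lipo-MK1775, where every point lies to its right.

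Between treated groups, limma again called none of the 9 genes. Of all genes, 0% were called when NLG919 was added to Free-MK1775 and 4.75% when it was added to Lipo-MK1775. The share was 3.25% between Lipo-MK1775 and Free-MK1775 and 0.0130% between the Lipo and Free forms with NLG919. Unadjusted p-values under 0.05 were found for 1 of the 9 genes in the first of these, H2-DMa, and for 0 in the other 3, and for 1662, 6374, 5928 and 1944 of all genes in that order.

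With NLG919 added to Free-MK1775 all 9 genes were lower than with Free-MK1775 alone, by a median of -1.09 beside -0.39 for all genes. H2-DMa, H2-DMb2 and Ciita were lower without overlap, 3 of 9 against 30.8% of all genes, and 0 were higher, against 6.98%; with unnamed transcripts added their groups overlapped. H2-DMb1 differed by -1.56 ± 1.10 (adjusted p = 0.487) and Cd74 by -1.09 ± 0.99 (adjusted p = 0.573). Without Free-MK1775+NLG919 replicate 1, Cd74 differed by -3.06 and H2-Eb1 by -3.65. Without replicate 2, 6 of the 9 were higher with a median of 0.61, Cd74 by 0.89 and H2-Eb1 by 1.25.

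With NLG added to Lipo-MK1775, 6 of the 9 genes were lower than with Lipo-MK1775 alone and the median was -0.26, although 84.2% of all genes were higher and their median was 0.75; all 9 were lower under median-of-ratios and 8 under quantile scaling, and 6 were higher on the FPKM as deposited. Without Lipo-MK1775 replicate 1 the median was -0.01. H2-Aa, H2-Ab1 and H2-Eb1 were lower without overlap, 3 of 9 against 7.58% of all genes, and 0 were higher, against 68.8%. On the FPKM as deposited, H2-Aa alone was lower without overlap, and H2-DMa, H2-DMb1 and Cd74 were higher without overlap. H2-Aa differed by -0.73 ± 0.97 (adjusted p = 0.566), H2-Ab1 by -0.60 ± 0.85 (adjusted p = 0.592) and H2-Eb1 by -0.29 ± 1.20 (adjusted p = 0.862), whereas Cd74 differed by 0.08 ± 0.99 (adjusted p = 0.954). In a fit of these 4 libraries alone, H2-Aa was called at -0.73 ± 0.17 (adjusted p = 0.0374). That fit called 6054 of all genes, 5627 higher and 427 lower. With its unnamed transcript added, H2-Aa stood at 469 and 583 in Lipo-MK1775+NLG and 762 and 631 in Lipo-MK1775. It then differed by -0.41 ± 0.93 in the fit of all libraries.

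Lipo-MK1775 against Free-MK1775 gave 4 higher and 5 lower genes with a median of -0.12, beside -0.71 for all genes; all 9 were higher under median-of-ratios scaling, 8 under quantile scaling and 1 on the FPKM as deposited. Without Free-MK1775 replicate 1, 8 were higher and the median was 0.25, and without replicate 2, 2 were higher and it was -0.37. H2-Ab1 alone was higher without overlap, by 0.67 ± 0.85 (adjusted p = 0.558). That is 1 of 9 against 7.35% of all genes, and 0 of 9 were lower, against 66.0%. With unnamed transcripts added, H2-Ab1 differed by -0.01 ± 0.88 and its groups overlapped. They overlapped on the FPKM as deposited too, where H2-DMa, H2-DMb1, H2-DMb2 and Cd74 were lower without overlap. Lipo-MK1775+NLG against Free-MK1775+NLG919 gave 9 higher genes and a median of 0.96, beside 0.42 for all genes, with 8 higher under median-of-ratios scaling. H2-DMa and Ciita did not overlap there, 2 of 9 higher against 38.7% of all genes and 0 lower against 7.94%, and both overlapped with unnamed transcripts added. Without Free-MK1775+NLG919 replicate 1, H2-Eb1 differed by 3.47 in that comparison. Without replicate 2, 2 of the 9 were higher, the median was -0.87 and H2-Eb1 differed by -1.44, with none called.

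Averaged over 4 libraries against 4, the Lipo forms were higher than the Free forms for all 9 genes by a median of 0.39, beside -0.14 for all genes, of which 0.00648% were called; 6 were higher on the FPKM as deposited and 8 under quantile scaling. The median was 1.15 without Free-MK1775+NLG919 replicate 1 and -0.32 without replicate 2, where 2 of the 9 were higher. NLG919 added against not added gave lower values for all 9 genes, by a median of -0.74 beside 0.17 for all genes, and they were lower under the 3 other scalings; 0% of all genes were called and 72.7% were higher. Without Free-MK1775+NLG919 replicate 2, 6 of the 9 were higher and the median was 0.17, and without replicate 1 the median was -1.50. The 4 libraries of either side overlapped for each of the 9 genes in both averages, where 0.473% of all genes were higher for the Lipo forms and 0.369% lower with NLG919 without overlap. The interaction of form and NLG919 was positive for all 9 genes with a median of 0.91, beside 1.12 for all genes, of which 21.3% were called; 3 were positive under median-of-ratios scaling and 4 under quantile scaling. None of the 9 was called in these 3 tests, none had an unadjusted p under 0.05, and 1067, 1143 and 7050 of all genes did. Without Free-MK1775+NLG919 replicate 1 the interaction was 3.73 for H2-DMb1 and 3.36 for H2-Eb1. Without replicate 2 it was -1.76 for H2-Aa and -1.54 for H2-Eb1, the opposite direction, and 2 of the 9 were positive with a median of -0.60.

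The contrast within Free-MK1775+NLG919 was the widest difference between libraries of a group for 7 of the 9 genes, all but H2-DMa and Ciita. Replicate 2 minus replicate 1 was -4.90 on the log2 scale for H2-Eb1, -4.33 for H2-DMb1, -3.95 for Cd74, -3.92 for H2-Aa, -3.35 for H2-Ab1, -2.85 for H2-DMb2 and -2.05 for H2-Oa. The median of all genes was -0.67, and a difference as low as that of H2-DMb2 was found in 2.48% of them. Replicate 2 was the lowest of the 10 libraries for 8 of the 9 genes, against 30.1% of all genes, and replicate 1 was the highest for 4 of 9, against 12.5%. With unnamed transcripts added these counts were 9 and 6.

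Free-MK1775+NLG919 replicate 2 has a mitochondrial share of 47.3%, and the Lipo-MK1775 libraries have shares of 64.1% and 56.0%. Cd74 stood at 1609 and 1504 in Lipo-MK1775, and the 8 libraries outside Free-MK1775+NLG919 ran between 1393 and 2970.3. The part of the mitochondrial share in the class II values was not tested. Among those 8 libraries the highest level was 2.10 times the lowest for H2-Aa, 2.13 times for Cd74, 2.19 times for H2-Ab1 and 2.43 times for H2-Eb1. Free-MK1775+NLG919 replicate 2 stood at 0.162 of their median for Cd74 and 0.0868 for H2-Eb1, and replicate 1 at 2.52 and 2.70 times.

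Markers of cells that carry class II moved in part with these 2 libraries. The 11 macrophage markers summed to 6962 in Free-MK1775+NLG919 replicate 1 and 2889 in replicate 2, and to 2995 to 5679 in the other 8 libraries. Adgre1, which encodes the macrophage antigen F4/80, stood at 32.2 in replicate 1 and 7.48 in replicate 2, and Csf1r, the receptor for the macrophage growth factor CSF1, at 133 and 39.0. The 9 class II genes summed to 0.944 of the macrophage sum in replicate 1 and 0.156 in replicate 2, against 0.512 to 0.988 in the other libraries, so the class II sum was low in replicate 2 relative to these markers as well.

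The 11 dendritic cell markers summed to 83.3 in replicate 1 and 37.1 in replicate 2, against 77.2 to 140.0 in the others. Flt3, a growth factor receptor of dendritic cells, stood at 1.46 in replicate 1 and 0.0720 in replicate 2, and Zbtb46, a factor of conventional dendritic cells, at 4.48 and 1.83. Itgax, which encodes CD11c, stood at 10.4 and 11.2, the 2 lowest values of all libraries. The 9 B cell markers summed to 8.15 to 13.6 over the 10 libraries, of which Blnk, an adaptor gene that macrophages also express, made up 5.69 to 9.85. Cd79a, a chain of the B cell receptor complex, stood at 0.307 to 4.22, and Ms4a1, which encodes CD20, was at most 0.137. The 6 T cell markers summed to 45.5 in replicate 1 and 12.1 in replicate 2, with Cd3e, a chain of the T cell receptor complex, at 7.57 and 0.279. Trac alone of the 6 was higher in replicate 2, at 1.27 and 2.26. The part of these cell types in the class II values was not tested.

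The summed level of interferon gamma and its signalling genes was also lowest in Free-MK1775+NLG919 replicate 2, although single genes such as Ifngr1 and Jak1 were lower in a Lipo-MK1775 library. The 11 genes of that list, among them the receptor, its kinases and target genes, summed to 860.0 in replicate 1 and 258 in replicate 2, to 1034 and 1099 in Free-MK1775, 493 and 485 in Lipo-MK1775, 871 and 864 in Lipo-MK1775+NLG, and 1284 and 943 in the control. Ifng, the gene of interferon gamma itself, was listed at 0 in replicate 2 and at 0.234 to 2.21 in the other 9 libraries. In the Lipo-MK1775 libraries the sum of this list was below both controls on this scale, and H2-Aa, H2-Ab1 and H2-Eb1 were above both.

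For Lipo-MK1775 against the control, 2 of the 11 interferon genes fell and 0 rose, where 21.1% of all genes were called, 233 higher and 3023 lower, and the counts of the lists below are to be read against that share. The list median was -0.91 beside -0.78 for all genes; under median-of-ratios scaling that median was -0.05, 4 were higher and 0 were called. Jak1, a kinase of the receptor, fell by -1.88 ± 0.39 (limma adjusted p = 0.0279), and Ifngr1, a receptor chain, by -1.26 ± 0.27 (adjusted p = 0.0279). Under median-of-ratios scaling these were -1.01 (adjusted p = 0.0654) and -0.40 (adjusted p = 0.135).

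Of the 7 promoter factors, which bind the X and Y boxes, 0 passed the test and all 7 were lower with a median of -0.97; under median-of-ratios and under quantile scaling 3 of the 7 were higher. Rfx5, a subunit of the X box factor, stood at 6.09 and 4.14 in Lipo-MK1775, against 15.6 and 16.7 in the control. Of the 9 processing genes 1 fell and 2 were higher, with a median of -0.24, and under median-of-ratios scaling 8 were higher and 0 were called. The gene that fell was Sppl2a, the protease that clears the last fragment of CD74, at 19.7 and 20.7 in Lipo-MK1775 and 62.3 and 61.4 in the control. It differed by -1.57 ± 0.43 (adjusted p = 0.0386), and by -0.71 under median-of-ratios scaling (adjusted p = 0.116). Of the 10 neighbours and class I genes 1 fell, B2m, the light chain of class I, by -0.84 ± 0.22 (adjusted p = 0.0377), while under median-of-ratios scaling it differed by 0.05 (adjusted p = 0.949).

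Among the 11 dendritic cell markers, Clec10a, a lectin that macrophages also carry, rose in Lipo-MK1775 by 1.90 ± 0.45 (limma adjusted p = 0.0319), standing at 29.6 and 38.3 in Lipo-MK1775 and 7.12 and 9.66 in the control. It was called higher on the FPKM as deposited and under median-of-ratios and quantile scaling too. No other gene of the lists rose in that comparison on the scale used here. All 3 endothelial markers fell, Cdh5, the endothelial cadherin, by -2.53 ± 0.41 (adjusted p = 0.0248), and by -1.73 under median-of-ratios scaling (adjusted p = 0.0409). Pecam1 fell by -1.90 ± 0.36 (adjusted p = 0.0262) and Kdr by -1.84 ± 0.51 (adjusted p = 0.0391), but neither was called under that scaling, at -1.07 (adjusted p = 0.0731) and -1.22 (adjusted p = 0.0955). The macrophage list had 0 of 11 called and a median of -0.08, the B cell list 0 of 4 tested and a median of 0.20, and the T cell list 0 of 6 and a median of -0.01.

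None of the 15440 genes was called for Lipo-MK1775 when either control library was left out, and 23 were when either Lipo-MK1775+NLG library was. Without control replicate 1, Clec10a differed by 1.70 (limma adjusted p = 0.175) and Cdh5 by -2.17 (adjusted p = 0.170). The 5 skin markers, which include keratins, summed to 1123 in control replicate 1 and 5.46 in control replicate 2. Their sum was 330.3 in Free-MK1775 replicate 2, 940.5 in Lipo-MK1775+NLG replicate 2 and at most 6.94 in the other 6 libraries. The part of skin in these values was not tested.

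In the interaction of form and NLG919, 1 of 9 processing genes was called, Sppl2a at 2.28 ± 0.61 (limma adjusted p = 0.0417), and 3 of 11 interferon genes, among them Jak1 at 2.62 ± 0.56 (adjusted p = 0.0398), beside a median of 1.12 for all genes, of which 21.3% were called. All 3 endothelial markers were called, at 3.30 for Pecam1, 3.13 for Cdh5 and 2.67 for Kdr, as were Cxcr2 of the neutrophil list at 2.63 and Krt8 and Cdh1 of the epithelial list at 1.66 and 2.06. Under median-of-ratios scaling Sppl2a was at 0.99 (adjusted p = 0.138) and Jak1 at 1.30 (adjusted p = 0.0973), and the endothelial markers at 2.04 for Pecam1 (adjusted p = 0.0685), 1.90 for Cdh5 (adjusted p = 0.0828) and 1.80 for Kdr (adjusted p = 0.106). Ifngr1 rose by 1.17 ± 0.27 when NLG was added to Lipo-MK1775 (limma adjusted p = 0.0480) and fell by -1.21 ± 0.27 in Lipo-MK1775 against Free-MK1775 (adjusted p = 0.0495). Under median-of-ratios scaling these were 0.32 (adjusted p = 0.251) and -0.41 (adjusted p = 0.175). Cdh5 and Pecam1 were called in the same 2 comparisons, Cdh5 at 2.25 with NLG added and at -2.36 for Lipo-MK1775 against Free-MK1775. In comparisons other than these and Lipo-MK1775 against the control, no gene of the pathway or marker lists was called.

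**Figure D3:**
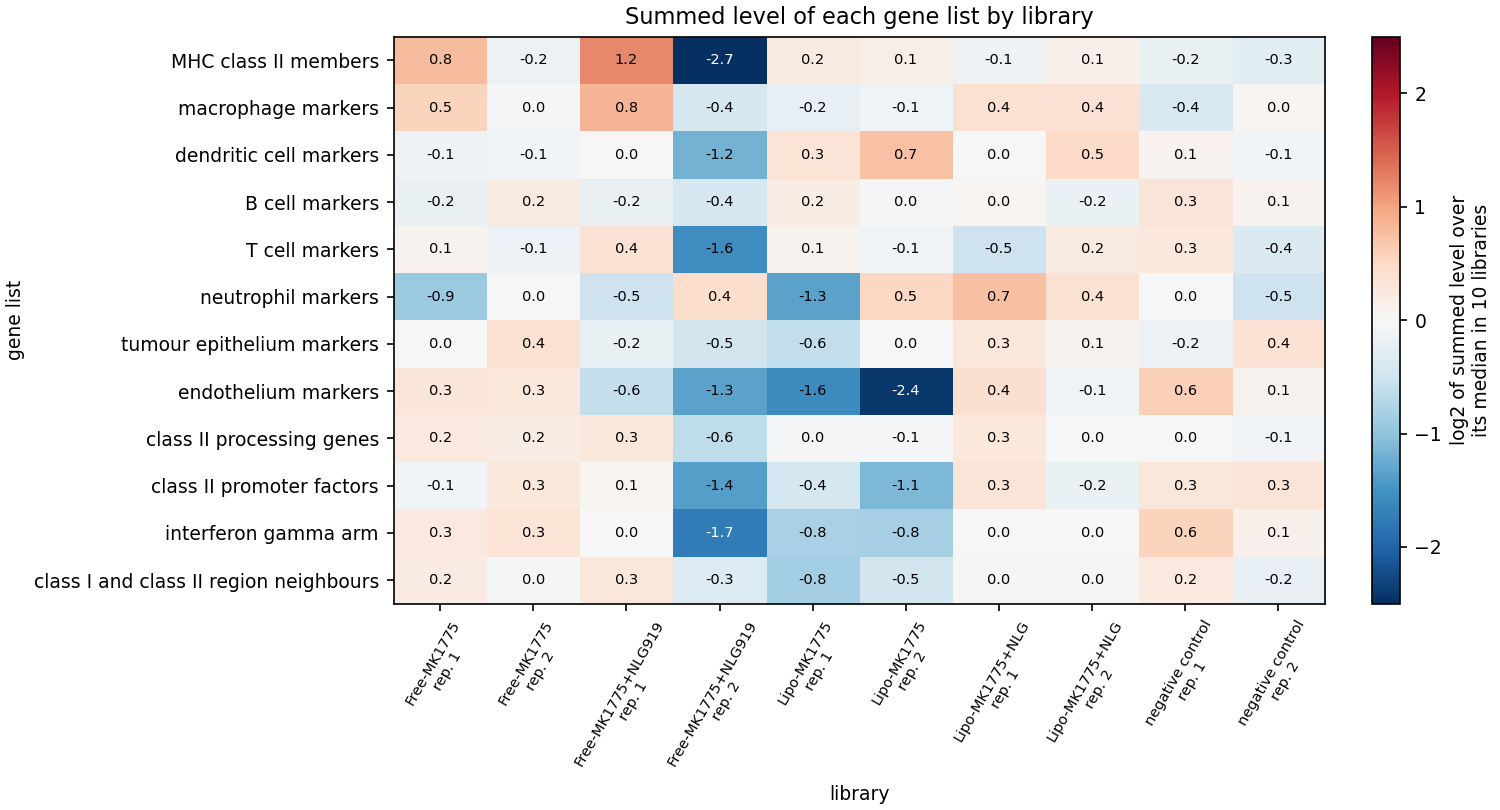
Log2 of the summed level of each gene list over its median across the 10 libraries (colour and printed value), with libraries in columns by group. Free-MK1775+NLG919 replicate 2 is the lowest library for the class II members and for the macrophage, dendritic cell, B cell and T cell lists. It is also the lowest for the class II processing, promoter factor and interferon gamma lists. The Lipo-MK1775 libraries are low for endothelial and, on this scale, interferon genes and not for class II.

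The proportions among the class II genes differed between groups in 1 respect. The level of Cd74 over the summed levels of its partners H2-Aa, H2-Ab1, H2-Ea and H2-Eb1 was 0.785 and 0.755 in Lipo-MK1775, against 1.29 and 1.28 in the control; it was 1.25 and 1.16 in Free-MK1775, 1.10 and 1.23 in Free-MK1775+NLG919 and 1.09 and 1.22 in Lipo-MK1775+NLG. With unnamed transcripts added it was 0.767 and 0.735 in Lipo-MK1775 and 0.977 to 1.21 in the other 8 libraries. The Lipo-MK1775 libraries lay below all others in either summary, and Free-MK1775+NLG919 replicate 2, the other library of high mitochondrial share, did not. This ratio was chosen with the values known and was given no test.

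Cd74 is made as a shorter and a longer form that differ by an exon, and the longer 9-exon transcript is 192 bases longer than the 8-exon one, or 64 codons. The added exon is known to encode a thyroglobulin type 1 domain. The 9-exon share of both transcripts was 15.5% and 29.2% in Free-MK1775, 13.4% and 50.4% in Free-MK1775+NLG919, 38.5% and 35.3% in Lipo-MK1775, 19.2% and 20.0% in Lipo-MK1775+NLG and 25.2% and 19.5% in the control. The 3 highest shares were in the 3 libraries of high mitochondrial share, and the 2 lowest were in the 2 libraries with most Cd74. The 9-exon transcript itself stood at 619 and 530.3 in Lipo-MK1775 and 394 and 269 in the control, and the 8-exon transcript at 989 and 973 in Lipo-MK1775 and 1172 and 1111 in the control. The part of the mitochondrial share in this split was not tested, and how the assembly divides reads between the forms is uncertain.

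**Figure D4:**
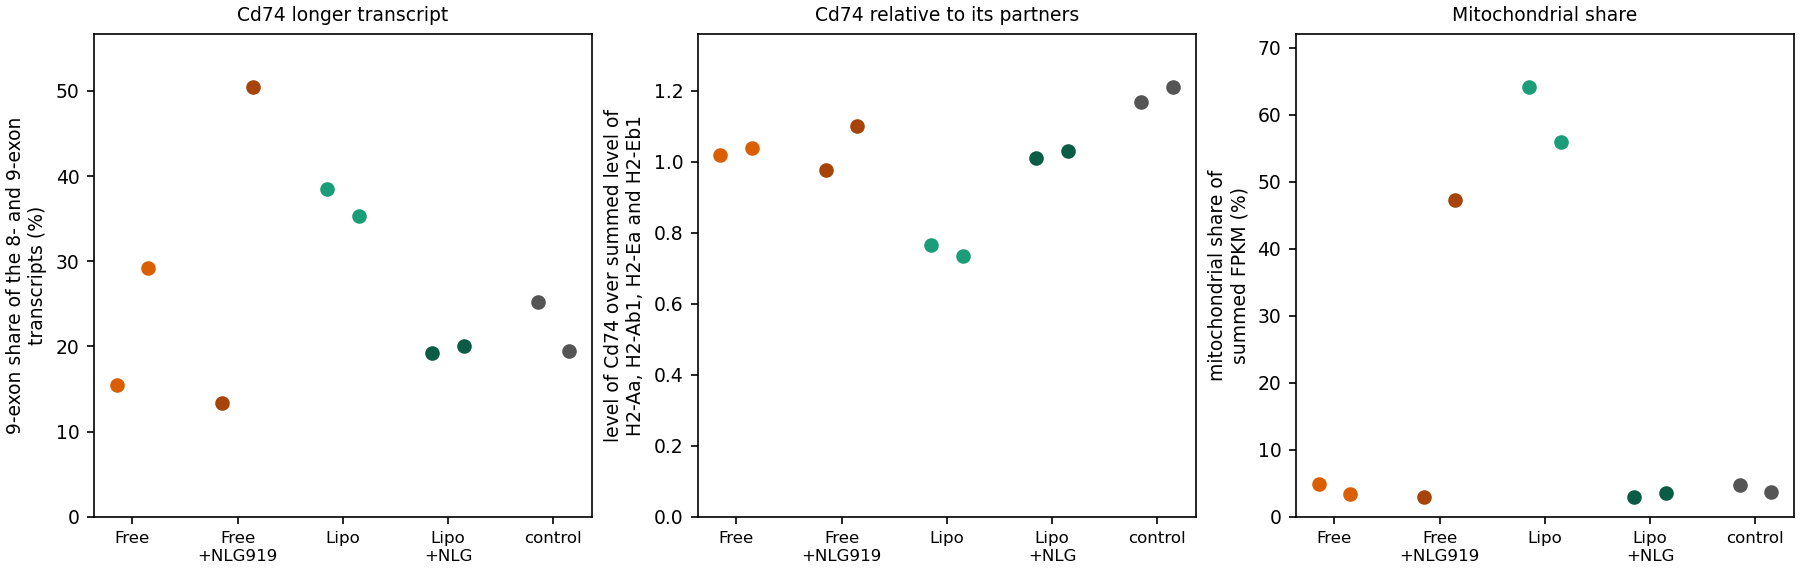
Share of the 9-exon transcript in the summed 8- and 9-exon Cd74 transcripts (left, percent), level of Cd74 over the summed level of H2-Aa, H2-Ab1, H2-Ea and H2-Eb1 with unnamed transcripts added (middle, ratio) and mitochondrial share of summed FPKM (right, percent), with a point per library and all axes starting at 0. The 3 libraries with a mitochondrial share of 47.3% or more have the 3 highest 9-exon shares, and both Lipo-MK1775 libraries have the lowest ratios.

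H2-Aa over H2-Ab1 was 1.10 to 1.64 in the 10 libraries with unnamed transcripts added and 1.00 to 2.31 without them. An unnamed 6-exon transcript of H2-Ab1 held 8.81% and 10.6% of the locus in Lipo-MK1775 and 13.4% to 49.7% in the other 8 libraries. An unnamed transcript of H2-Aa stood at 211 in Lipo-MK1775+NLG replicate 2, the library with the ratio of 1.00, at 159 in Free-MK1775 replicate 1 and at most 28.5 elsewhere. H2-Ea over H2-Eb1 was 1.35 to 2.09. Summed over the 9 genes, class II stood at 0.720 and 0.496 of the sum of H2-K1, H2-D1 and B2m, the class I chains, in Lipo-MK1775, and at 0.233 and 0.307 in the control; with unnamed transcripts added it was 0.442 and 0.365, against 0.210 and 0.196. The class I figure carries its own limit, as H2-D1 was listed at 89.3 to 2465 across libraries.

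Likeness of profiles was measured as the mean absolute difference, over the 10 libraries, between log2 levels centred on each gene's own mean. The closest pair of the 9 was H2-DMb1 and Cd74, at 0.152 log2 units, followed by H2-Aa and Cd74 at 0.230 and H2-Aa and H2-Eb1 at 0.273. H2-DMa was the farthest from the mean profile of the 9, at 0.997, and Ciita the next, at 0.595, whereas the other 7 lay at 0.240 to 0.389. Outside the 9, the 5 genes nearest to the mean profile among the other 15431 tested were Ctss at 0.254, H2-Ea at 0.268, Rftn1 at 0.285, Nkg7 at 0.293 and Cryzl2 at 0.301, where the median of all genes was 0.707. Ctss, cathepsin S, is the protease that cuts CD74, and it stood at 1058 and 710.0 in Free-MK1775, 1166 and 331 in Free-MK1775+NLG919, 877 and 844 in Lipo-MK1775, 768 and 821 in Lipo-MK1775+NLG and 593 and 775 in the control. All these profiles share the 10 libraries and their depth, and the low library Free-MK1775+NLG919 replicate 2 weighs in each of them.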

How the data were processed

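RNA-seq of 10 subcutaneous 4T1 tumour libraries was available as a single table of FPKM per transcript. Per the labels' protocols, RNA was extracted with an RNeasy kit and libraries were made with a NEBNext Ultra kit; the submitters' processing notes name FastQC, Trim Galore, HISAT2, StringTie and build GRCm39, with no versions. The deposited FPKM values, which the authors computed per transcript, include mitochondrial transcripts in their total. No read counts entered the work. Whether strand was used in counting is not stated, so reads of overlapping or antisense genes cannot be told apart. Depth is known only in relative terms, from the smallest steps of low FPKM values, so no counting intervals are given.

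FPKM of transcripts with a gene name were summed per gene and divided by the library's sum outside the mitochondrial genome, times 1000000. Unnamed assembled transcripts, 21051 of 161762, were left out, and 14868 of them were added to their locus in an alternative. Genes at 1 or more in at least 2 libraries were tested (15440 genes, 36847 not tested). A limma fit (version 3.58.1, R 4.3.3) of log2(level + 1) over all libraries, with a variance trend and a mean per group, gave 11 comparisons, tested two-sided with Benjamini-Hochberg adjustment over all genes tested and called under 0.05; the same steps were tested on simulated data. Fold changes are on that log2 scale, which understates changes of low genes. Named genes are the 9 members, called genes of the lists (at most 3 per list and direction), fixed defining genes (some not reported here), and the 5 most alike genes; genes named only for their levels, C1qa, Krt8, Blnk, Cd79a, Rfx5 and the class I genes, were chosen after their values were seen. The members and lists were chosen with earlier results of these data known. Alternatives were 3 other scalings, the pseudocount, the filter, addition of unnamed transcripts, no variance trend, a replicate block, fits of only the groups compared, the mitochondrial share as covariate, and libraries left out.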

Additional observations from a re-analysis of the deposited data

Results flagged for a closer look

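Arms of 4 libraries (each form, and with or without NLG919) were examined for a library far from the others, by the gap of the extreme library to its neighbour as a share of the arm's log2 range. Of 36 groups of 4, 4 held a library beyond Dixon's critical value, which chance gives in about 1 in 20. Free-MK1775 replicate 1 stood above the 3 other libraries without NLG919 for H2-DMa (205 against 101 to 105, share 0.952), H2-DMb1 (125 against 52.5 to 58.2, share 0.881) and Cd74 (2970.3 against 1474 to 1609, share 0.875). Free-MK1775+NLG919 replicate 2 stood below the 3 other Free libraries for H2-DMb2 (3.56 against 31.9 to 43.6, share 0.866).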

How the results depend on the processing

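None of the 9 genes was called in the 11 comparisons under the FPKM as deposited, median-of-ratios or quantile scaling, a pseudocount of 0.1, no filter, added unnamed transcripts, no variance trend or a replicate block, nor in the 5 comparisons that can be made without the 3 libraries of high mitochondrial share. With only the groups compared, 3 were called for Lipo-MK1775 against the control and 1 for NLG added to Lipo-MK1775, beside 6356 and 6054 of all genes. With the mitochondrial share as covariate, 1 was called for the Lipo against the Free forms and 2 for NLG919 added, beside 139 and 121 of all genes. Within groups that share differed by far the most in Free-MK1775+NLG919, at 2.88% and 47.3%, so the covariate rests mostly on that pair. The medians below that involve Lipo-MK1775 carry the difference within that pair over to other libraries. That covariate also turned the direction of medians over the 9 genes, none called: 1.12 for Free-MK1775+NLG919 against the control (-0.42 without it), 0.39 for NLG919 added to Free-MK1775 (-1.09), 4.30 for Lipo-MK1775 against Free-MK1775 (-0.12), -0.78 for the Lipo against the Free form with NLG919 (0.96) and -5.41 for the interaction (0.91). It also moved the median to 4.79 for Lipo-MK1775 against the control (0.72) and to -4.71 for NLG added to Lipo-MK1775 (-0.26). Leaving out each library gave 0 to 6 called for Free-MK1775+NLG919 and 0 to 2 for Lipo-MK1775 against the control. It gave 0 to 7 for NLG919 added to Free-MK1775, for the Lipo against the Free form with NLG919, and for the interaction, 0 to 1 for the form average and 0 to 2 for the NLG919 average. Every such call came without a Free-MK1775+NLG919 library. Those calls are to be read against the counts over all genes given below. The interaction for H2-Aa was 2.16 without replicate 1 of that group and -1.76 without replicate 2, against 0.20 with all libraries; for H2-Eb1 it was 3.36 and -1.54, against 0.91. A lone library was assumed to vary like the others, and the cause was not tested.

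Counts over all genes moved far more. For Lipo-MK1775 against the control, 3256 genes were called, and 10 to 6541 under other settings and 0 to 7585 with a library left out; 233 were higher and 3023 lower, against 416 and 367 under median-of-ratios scaling. The interaction had 3289, and 0 to 7000 and 0 to 8811. NLG added to Lipo-MK1775 had 734, and 14 to 6777 and 0 to 7353, and Lipo-MK1775 against Free-MK1775 had 502, and 20 to 5978 and 1 to 6902. Without Free-MK1775+NLG919 replicate 1, 6404 were called for that group against the control (3 with it), 5658 against Free-MK1775 (0 with it) and 6021 for the Lipo against the Free form with NLG919 (2 with it).

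With the replicate block, 0 of the 9 genes were called in any comparison, and 2129 of all genes for Lipo-MK1775 against the control and 67 for the interaction. Differences between same-numbered libraries correlated at -0.196 to 0.0650 between groups. These values show no sign of pairing by number, but they cannot exclude it, as large differences of single libraries could hide it.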
